A study of Homo sapiens with 4 samples.

Results

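NRF2 ChIP-Seq summits were described at 4 genes of the thioredoxin system, TXN, TXNRD1, PRDX1 and SRXN1, in mammospheres, the spheres that the established human breast cancer line MDA-MB-231 forms without attachment. A summit is the base with the highest signal of a peak called by MACS2. The members were all summits within 20 kb of the 4 gene bodies in the human genome build hg19, 43 of 9717 summits over 4 lists. SC (scrambled control, given as parental in the labels) and ZMYND8 KO, in which the histone reader ZMYND8 was knocked out, gave 2 libraries each, and nothing says that they came from separate cultures or whether ZMYND8 KO was 1 clone. NRF2 summits hold no measure of ZMYND8 itself, so the knockout was not checked here. SC replicates 1 and 2 held 2030 and 6816 summits and ZMYND8 KO replicates 1 and 2 held 394 and 477. Each summit carries a score, read as the −log10 of its q-value, which depends on the depth of the library. The lists give no read counts, so depth is unknown, and the rank in the list (1 for the highest score) is given beside each score.

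NRF2 is a transcription factor that binds antioxidant response elements together with small MAF proteins and activates genes against oxidative stress. Thioredoxin, the product of TXN, reduces oxidised protein thiols, and thioredoxin reductase 1 (TXNRD1), a selenoprotein, regenerates it with NADPH. Peroxiredoxin 1 (PRDX1) removes peroxides and is reduced in turn by thioredoxin, and sulfiredoxin (SRXN1) repairs peroxiredoxins that were overoxidised. The study compared NRF2 binding in SC and ZMYND8 KO mammospheres to ask whether ZMYND8 is needed for NRF2 binding at antioxidant genes.

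The 250 bases before annotated starts are shown for the genes whose strongest summits lay near one, from the RefSeq promoter table in GRCh38.p14, in which 3 of the 4 genes matched and TXNRD1 had 2 starts. Capitals mark TGANNNNGC, the core of the antioxidant response element, or TGANTCA, the AP-1 element, searched on both strands. PRDX1 was not matched. The sequences are in GRCh38.p14 and all summit positions are in hg19, and the builds were set side by side only at the second start of TXNRD1, by the distance from the first start.
TXNRD1, first start (chr12:104215529-104215778, plus strand): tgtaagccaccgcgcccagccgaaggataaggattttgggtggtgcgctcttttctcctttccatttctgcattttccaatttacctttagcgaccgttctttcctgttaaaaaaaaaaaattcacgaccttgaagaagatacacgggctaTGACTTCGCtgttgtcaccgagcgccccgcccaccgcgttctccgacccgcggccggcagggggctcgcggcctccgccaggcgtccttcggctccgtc
TXNRD1, the second start (chr12:104286782-104287031, plus strand): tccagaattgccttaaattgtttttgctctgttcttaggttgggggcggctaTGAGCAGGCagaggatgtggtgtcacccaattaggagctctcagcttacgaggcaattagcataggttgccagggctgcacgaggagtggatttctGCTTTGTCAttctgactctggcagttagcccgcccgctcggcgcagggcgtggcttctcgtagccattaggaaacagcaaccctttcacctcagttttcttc
SRXN1 (chr20:653201-653450, minus strand): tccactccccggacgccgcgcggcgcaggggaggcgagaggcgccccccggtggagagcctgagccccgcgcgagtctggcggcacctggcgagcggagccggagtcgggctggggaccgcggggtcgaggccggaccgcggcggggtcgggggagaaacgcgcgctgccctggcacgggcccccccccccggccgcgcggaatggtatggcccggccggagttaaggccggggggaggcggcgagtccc
TXN (chr9:110256508-110256757, minus strand): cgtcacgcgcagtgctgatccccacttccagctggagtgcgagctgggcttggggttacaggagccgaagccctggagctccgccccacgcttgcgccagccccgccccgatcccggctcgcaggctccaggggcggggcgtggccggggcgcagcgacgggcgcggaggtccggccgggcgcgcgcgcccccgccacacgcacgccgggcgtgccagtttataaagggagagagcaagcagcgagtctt
Both TXNRD1 stretches held TGANNNNGC, with 1 match before the first start and 2 before the second start, and those of SRXN1 and TXN held none. TGANTCA was found in none of the 4. Of 35114 promoter stretches of this length in the table, 35.2% held TGANNNNGC and 6.57% held TGANTCA, and a match does not make a site. The stricter TGACNNNGC, held by 10.9% of the stretches, matched once in each TXNRD1 stretch, as TGACTTCGC and TGACAAAGC.

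With summits within 200 bp joined into sites, 1 site at each of the 4 genes was called in all 4 libraries. Most of the other sites were called in SC only, as were most sites of the whole series. Of the 24 sites at these genes, 6 in both SC lists and 13 in 1 SC list had no ZMYND8 KO summit. Over the whole series these were 773 and 6340 of 7708 sites. Within 20 kb, SC replicates 1 and 2 held 12 and 22 summits, and ZMYND8 KO replicates 1 and 2 held 4 and 5. The means were 17 ± 7.07 (SD, n = 2) in SC and 4.50 ± 0.707 (SD, n = 2) in ZMYND8 KO, a ratio of 0.265. The groups did not overlap, and the exact permutation test gave a two-sided p of 0.33, the smallest that 2 libraries against 2 allow. Over the whole lists the ratio of the means was 0.0985. TXNRD1 carried most of the difference, with 7 and 15 summits in SC and 1 and 2 in ZMYND8 KO, and without it the ratio was 0.5. Its gene body is 134529 bp long and those of the other genes are 6748 to 12829 bp, so more sequence was searched at TXNRD1. Counting summits that scored 10 or more left 7 in each SC list and 3 and 4 in ZMYND8 KO, which gave 0.5. With every list limited to its 300 top scores, which makes the lists equally long, SC replicates 1 and 2 held 4 each and ZMYND8 KO replicates 1 and 2 held 3 and 5, so the ratio was 1.00.

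TXN, on chr9:113006092-113018920 on the minus strand, had the strongest summit of the 4 genes in every list. They lay upstream of the gene start, 213 bp and 236 bp in SC replicates 1 and 2 and 250 bp and 260 bp in ZMYND8 KO replicates 1 and 2. All 4 positions fell within 47 bp. The scores were 75.6 and 76.7 in SC and 32.8 and 30.8 in ZMYND8 KO. Both ZMYND8 KO scores were below both SC scores, as at 62.8% of the 239 sites called in all 4 lists. The ranks were 23 of 2030 and 25 of 6816 in SC and 50 of 394 and 39 of 477 in ZMYND8 KO. The start of the TXN promoter shown above comes from another annotation, with a gene body 131 bp shorter than the one used for these distances, so whether the summits fall inside the printed stretch was not determined.

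TXN had another site inside the gene in both SC lists, 759 bp downstream of the start in SC replicate 1 (score 5.56, rank 1073) and 887 bp in SC replicate 2 (score 9.21, rank 661). No ZMYND8 KO summit lay within 200 bp of it. SC replicate 2 alone had summits 478 bp downstream and 1431 bp upstream of the start, both with a score of 4.92. These weaker TXN summits thus ranked from 661 to 1788 in their lists.

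TXNRD1, on chr12:104609557-104744085 on the plus strand, held summits in 3 stretches of the gene. Its site common to all libraries lay about 71 kb inside the gene body, 71092 bp and 71186 bp from the gene start in SC replicates 1 and 2 and 71204 bp and 71143 bp in ZMYND8 KO replicates 1 and 2. In the RefSeq table the second start of TXNRD1 lies 71253 bp after the first start, and the gene body has the same length, 134529 bp, in both annotations. Counted in this way, each from the first start of its own build, which assumes that no bases were gained or lost between the starts, the summits lay 161, 67, 49 and 110 bp before the second start in the same order. The second TGANNNNGC match of that stretch, which on the opposite strand reads TGACAAAGC, spans the bases 102 to 94 before the second start and so, under the same assumption, lies between the summits of the lists.

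The ZMYND8 KO libraries differed from each other at the second start of TXNRD1. The scores were 31.6 and 25.0 in SC replicates 1 and 2, whereas replicate 1 of ZMYND8 KO had 2.23 and replicate 2 had 24.5. The rank was 93 of 2030, 153 of 6816, 391 of 394 and 60 of 477. The peak was thus among the weakest called in 1 ZMYND8 KO library and among the strongest in the other, and the latter score was close to the lower SC score.

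**Figure D1:**
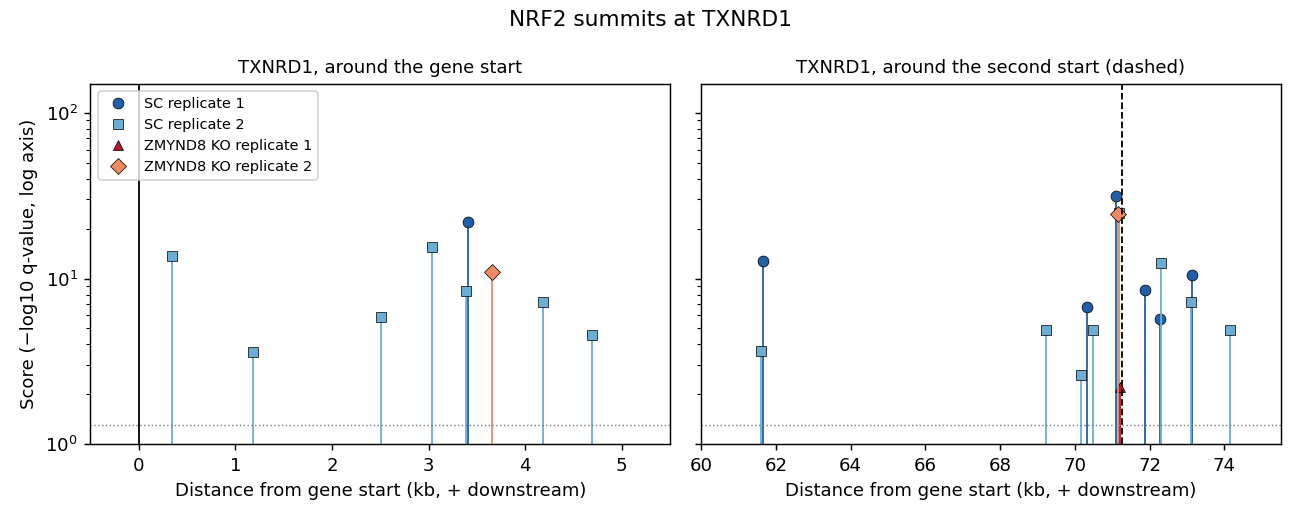
NRF2 summits at TXNRD1 by distance from the gene start (kb, positive downstream) and score (−log10 q-value, log axis), with 1 marker shape per library, a dotted line at a q-value of 0.05, a solid line at the gene start and a dashed line at the second start, placed by its GRCh38 distance from the first. Near the dashed line all 4 libraries have a summit, with scores of 31.6 and 25.0 in SC and 2.23 and 24.5 in ZMYND8 KO, the SC replicate 2 marker being hidden behind that of ZMYND8 KO replicate 2, and every other marker right of 60 kb is from SC.

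Around the first start, TXNRD1 summits were called less regularly. SC replicate 1 had 1 summit there, 3411 bp downstream of the start, with a score of 21.9 and rank 167. SC replicate 2 had 7 summits from 347 bp to 4688 bp downstream, of which that at 3392 bp (score 8.38, rank 786) recurred within 200 bp in SC replicate 1. Its strongest, at 3031 bp with a score of 15.6 and rank 312, did not recur. ZMYND8 KO replicate 1 had no summit in this stretch, and ZMYND8 KO replicate 2 had 1, at 3661 bp with a score of 10.98 and rank 181. That summit was 250 bp from the SC replicate 1 summit and 269 bp from the SC replicate 2 summit, so it counted as separate at 200 bp and as the same site at 500 bp. All of these summits lay downstream of the hg19 gene start, so none lay in the 250 bases before that start.

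Farther into TXNRD1, 4 more sites were called in both SC lists and in neither ZMYND8 KO list. The site about 61.6 kb from the start had a score of 12.8 in SC replicate 1 and 3.65 in SC replicate 2. The other 3 flanked the second start, at 70163 to 70485 bp, 72288 to 72296 bp and 73098 to 73132 bp, with scores from 2.63 to 12.3. Summits of 1 SC list alone lay at 71882 bp in SC replicate 1 and at 69236 bp and 74155 bp in SC replicate 2. Counting 1000 bp on either side, the stretch from 61667 bp to 73132 bp held 6 and 7 summits in SC and 1 in each ZMYND8 KO list, that before the second start. In RefSeq, EID3 lies within 20 kb of TXNRD1 as well.

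PRDX1, on chr1:45976707-45988719 on the minus strand, had exactly 1 summit in each library. It lay inside the gene body, 1019 bp and 1042 bp downstream of the gene start in SC replicates 1 and 2 and 1036 bp and 1097 bp in ZMYND8 KO replicates 1 and 2. The scores were 12.8 and 21.5 in SC and 10.2 and 8.69 in ZMYND8 KO. Its ranks were 331, 190, 187 and 235, so the PRDX1 site ranked below those of TXN and SRXN1 in every list. In RefSeq the protein-coding genes TESK2, CCDC163 and MMACHC lie within 20 kb of PRDX1, and which of them the site belongs to was not tested. The RefSeq gene body of PRDX1 is 173 bp shorter than that used here, so its distances carry an uncertainty of that size.

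SRXN1, on chr20:627267-634014 on the minus strand, had its common site at the gene start. The summit of SC replicate 1 was 3 bp upstream of the start, that of SC replicate 2 was 16 bp downstream, while in ZMYND8 KO it was at the start itself in replicate 1 and 138 bp upstream in replicate 2. The RefSeq gene body of SRXN1 is 162 bp shorter, so these distances are uncertain by as much. The scores were 55.3 and 61.1 in SC and 20.8 and 21.3 in ZMYND8 KO, at ranks 37 of 2030, 34 of 6816, 86 of 394 and 74 of 477. As at TXN, the scores of the replicates of each genotype were close to each other, and both ZMYND8 KO scores were below both SC scores. The same order of scores held at 62.8% of the 239 sites called in all 4 lists. Weak summits at SRXN1 were found in 1 SC list each, 810 bp downstream of the start in SC replicate 1 (score 4.53) and 7353 bp upstream in SC replicate 2 (score 4.38). In RefSeq, SCRT2 also lies within 20 kb of SRXN1.

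**Figure D2:**
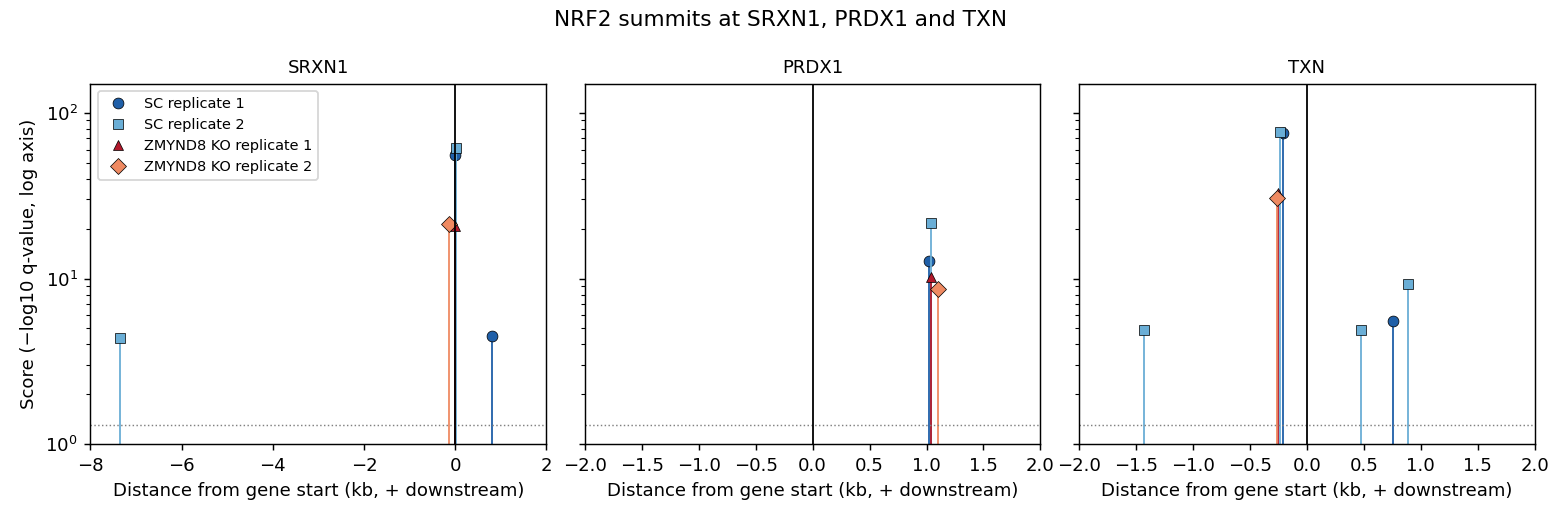
NRF2 summits at SRXN1, PRDX1 and TXN by distance from the gene start (kb, positive downstream, vertical line) and score (−log10 q-value, log axis), with 1 marker shape per library and a dotted line at a q-value of 0.05. Each gene has 1 position with markers of all 4 libraries, at the start of SRXN1, about 1 kb inside PRDX1 and upstream of TXN (where ZMYND8 KO replicate 1 is hidden behind replicate 2), and every other marker is from SC.

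Summits of any list within 200 bp of the next were joined into sites, which gave 24 sites at the 4 genes. Of these, 10 were in both SC lists, and 4 of the 10 were also in both ZMYND8 KO lists, 1 per gene. With 100 bp in place of 200 bp, 8 sites were in both SC lists and 3 in all 4 lists. The SRXN1 site was then split, since its ZMYND8 KO replicate 2 summit lay 135 bp from the nearest other summit. Over the whole series, 1190 of 7708 sites were in both SC lists, and 20.1% of the 1190 were in both ZMYND8 KO lists. The other 6 of the 10, of which 5 were at TXNRD1 and 1 at TXN, were in neither ZMYND8 KO list, beside 65.0% of all sites in both SC lists. The 6 had scores of at most 21.9. A further 13 sites were in 1 SC list alone, 11 of them in the longer list of SC replicate 2, and 1 was in ZMYND8 KO replicate 2 alone. Over the whole series, 6340 of 7708 sites were in 1 SC list alone and 78 were in no SC list. With 10 sites, these counts were not tested against the whole series.

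A ZMYND8 KO summit lay within 200 bp of 4 of the 12 SC replicate 1 summits at the 4 genes (33.3%, Wilson 95% interval 13.8% to 60.9%) and of 4 of the 22 of SC replicate 2 (18.2%, 7.31% to 38.5%). Over all summits the shares were 22.2% and 7.00%. Of the same 12 and 22 summits, 10 and 11 had a summit of the other SC list, beside 58.7% and 17.6% of all summits. All 4 summits of ZMYND8 KO replicate 1 and 4 of the 5 of ZMYND8 KO replicate 2 had an SC summit, beside 91.1% and 88.1% of these lists. The intervals cover counting error only and treat summits as independent, which neighbours in TXNRD1 are not.

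The summits with a ZMYND8 KO counterpart were the high-ranking ones. Up to rank 100, the 3 summits of SC replicate 1 and the 2 of SC replicate 2 all had one, as did 97.0% of all summits of that class in each list. From there to rank 300, the 2 summits of SC replicate 2 (TXNRD1 at the second start and PRDX1) had one and the 1 of SC replicate 1 (TXNRD1 near the first start) had none, where 67.0% and 66.5% of all summits did. From there to rank 500, PRDX1 was the 1 of 3 in SC replicate 1, and 0 of 3 had one in SC replicate 2, where the shares of all summits were 38.5% and 40.6%. Below rank 500 none of the 5 and 15 summits had one, and few of all summits did. The shares of all summits of SC replicates 1 and 2 were 18.3% and 13.0% up to rank 1000 and 4.72% and 4.69% up to rank 2000, and 0.948% in SC replicate 2 after that.

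**Figure D3:**
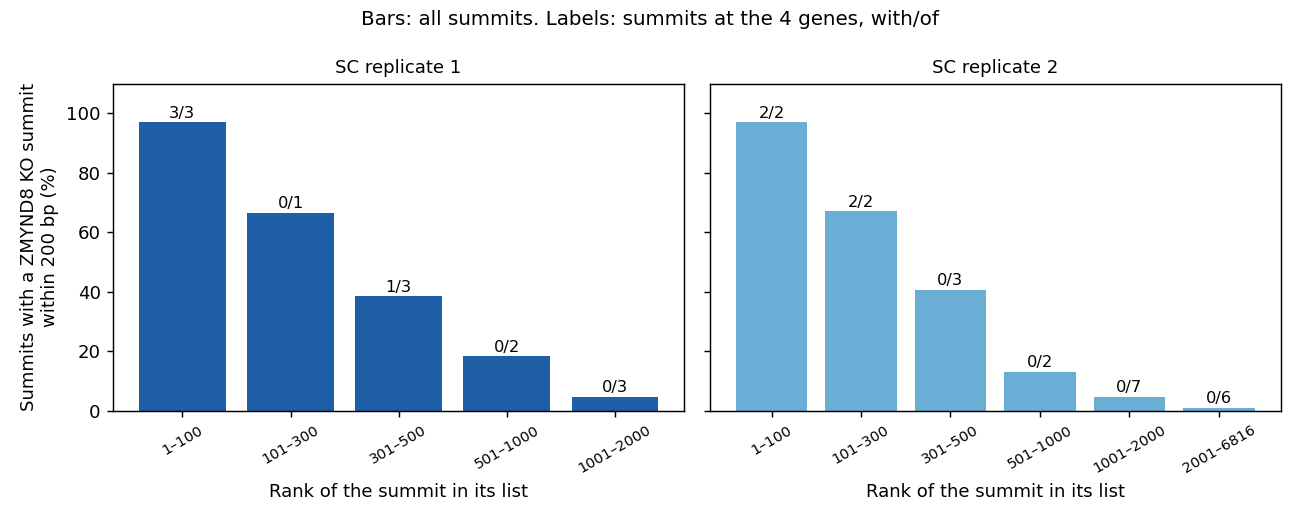
Share of all summits of each SC list that had a ZMYND8 KO summit within 200 bp (bars, %) by class of rank, with the summits at the 4 genes written above each bar as those with a counterpart over those in the class. The bars drop from 97.0% at ranks 1 to 100 to under 5% beyond rank 1000, and the counts at the 4 genes drop with them, and the 10 summits of SC replicate 1 after rank 2000, with none at these genes, are not drawn.

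The 4 genes were also ordered among the 239 sites called in all 4 lists, so that every list had the same length. TXN ranked 18 and 20 in SC and 41 and 36 in ZMYND8 KO, and SRXN1 ranked 32 and 29 in SC and 71 and 65 in ZMYND8 KO. Both genes thus stood lower among common sites in ZMYND8 KO than in SC, with groups that did not overlap, as did 20.9% of the 239 sites, while 51 sites stood higher in the same sense. PRDX1 ranked 179 and 133 in SC and 153 and 170 in ZMYND8 KO, with overlapping groups. TXNRD1 ranked 83 and 116 in SC and 238 and 54 in ZMYND8 KO, so that the ZMYND8 KO ranks enclosed those of SC. The gap of 184 ranks between its ZMYND8 KO libraries was reached or passed by 2 of the 239 sites, TXNRD1 included, and the median gap was 23.

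By score, both ZMYND8 KO values were below both SC values at all 4 genes. The same held for 62.8% of the 239 common sites, and the opposite for 9 of them. Lower scores at these genes and lower depth or enrichment in the ZMYND8 KO libraries as a whole cannot be told apart, since the lists hold no read counts.

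**Figure D4:**
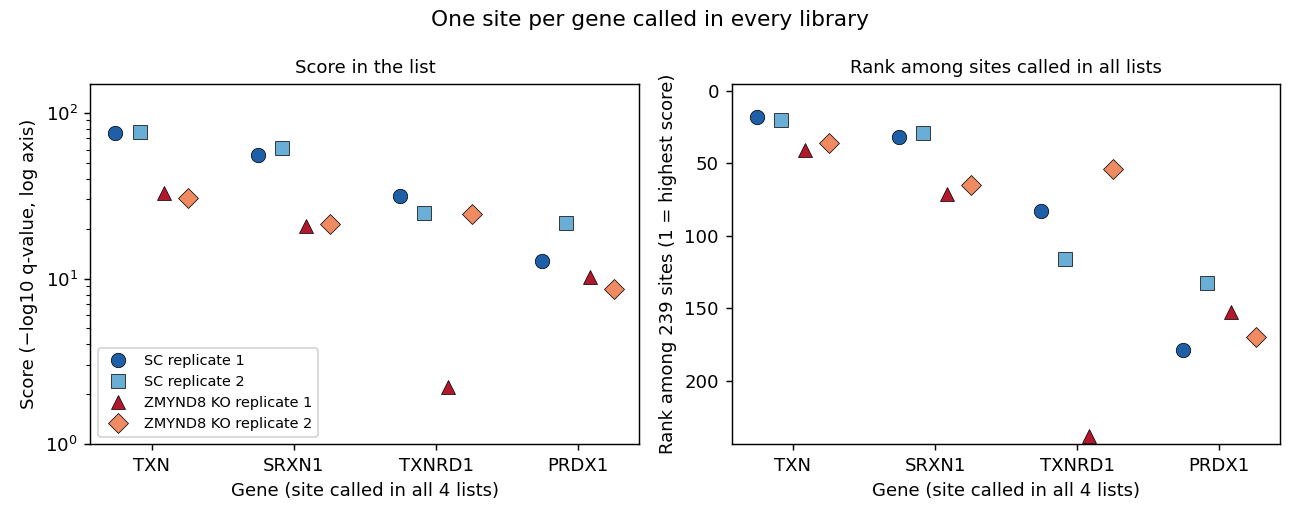
Score (left, −log10 q-value, log axis) and rank among the 239 sites called in all lists (right, 1 for the highest score) of the common site of each gene, with 1 marker per library. The ZMYND8 KO markers are below the SC markers at TXN and SRXN1 in both panels, overlap with them in rank at PRDX1, and lie far apart at TXNRD1, at ranks 238 and 54.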

How the data were processed

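Chromatin of MDA-MB-231 mammospheres was immunoprecipitated with an NRF2 antibody and sequenced on a NextSeq 2K. The submitters' processing notes name FastQC 0.11.2, Bowtie2 2.2.3, Picard 1.127 and MACS2 2.0.10 and the builds hg19 and hg38, without their role. The authors deposited 1 summit list per library with a score, taken here for a −log10 q-value because the lowest value, 1.32, lies just above that of 0.05. A control library is not given in the sources used here. The build was read from the positions: in every list a summit lay 0 to 1097 bp from the hg19 starts of SRXN1, PRDX1 and TXN, and the summit nearest to a GRCh38 start of the 4 genes was 4.28 kb away.

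The hg19 gene bodies were given with the choice of the genes. Strands came from the RefSeq promoter table, and that of PRDX1 from general knowledge. Gene bodies of SRXN1, PRDX1 and TXN are 131 to 173 bp longer here than in RefSeq for GRCh38, so distances carry that uncertainty. Exons and introns and other thioredoxin system genes were not analysed here, since no annotation in hg19 was used. Summits were counted from 1, matched at 200 bp, and ranked by score with ties sharing the better rank. The 4 genes and the lists were chosen with earlier results of these data known. Joined sites, and ranks over those called in all lists, were added after the data were seen. Group counts were compared by an exact permutation test (two-sided). With 2 libraries per group, the p-values reflect only how the counts fall between the groups or pairs. Differences between these libraries may be technical. Alternatives changed the window, the matching distance, the score or rank limit and the libraries used. Matching was tested on a copy of the SC replicate 1 list with summits removed and shifted at random. Distances, ranks and the exact test were checked on a few made values. Python 3.11.15, numpy 2.4.6, scipy 1.17.1 and matplotlib 3.10.9 were used.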

Additional observations from a re-analysis of the deposited data

How the results depend on the processing

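The ratio of summits at the 4 genes, 0.265, ran from 0.205 to 0.375 without 1 library in turn, from 0.207 to 0.273 with the gene bodies alone or windows of 5 and 50 kb, and was 0.310 with summits within 500 bp counted once. It was 0.5 at a score of at least 10, and also 0.5 without TXNRD1 (added after the data were seen). It was 1.00 when each list was limited to its 300 top scores. With the replicate block, pairing libraries by number, the mean ratio was 0.280, and ZMYND8 KO had fewer summits in each of the 2 pairs. The exact two-sided p over sign changes was 0.5, which no result with 2 pairs can go below. Nothing says that a number marks a shared batch.

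The share of SC replicate 1 and 2 summits with a ZMYND8 KO summit was 66.7% and 45.5% at 1000 bp and 75.0% and 100% among the 300 highest-scoring summits, and 57.1% in both at a score of at least 10. The difference of the mean counts (SC minus ZMYND8 KO) at TXNRD1, 9.5, was 3 at a score of at least 10 and 0.5 among the 300 highest-scoring summits. At SRXN1 and TXN, 1 and 2, it was 0 in both. At SRXN1 it was 0.5 in the gene body alone or within 5 kb. At PRDX1, 0, it was 0.5 within 50 kb and at a score of at least 10, and -0.5 among the 300. These differences depended on the SC library left out: without SC replicate 2 TXNRD1 had 5.5 and TXN had 1, and without SC replicate 1 TXNRD1 had 13.5 and TXN had 3. Among the other alternatives, no value beyond those given here moved by over 1.5 times. The limits above remove weak summits by construction, and unknown depth limits every count.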
